A study of Homo sapiens with 5 samples.

Results

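Tropomyosins, cytoplasmic actins and nonmuscle actinins form a small group of genes whose products build and decorate actin filaments, and 10 of them were followed across mixtures of RNA from a pair of human lung adenocarcinoma cell lines. The genes were chosen by name: the 4 tropomyosins TPM1, TPM2, TPM3 and TPM4, the actins ACTB and ACTG1, the actinins ACTN1 and ACTN4, the myosin light chain MYL6 and the caldesmon gene CALD1. They are 10 of the 13492 genes with enough reads to test, and earlier results of these data were known when they were chosen. GENCODE v44 assigns 262 transcripts to them, of which 220 were listed in the tables and 114 had at least 10 reads in at least 2 libraries, among 31758 such transcripts in all.

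NCI-H1975 and HCC827 are established cell lines from lung adenocarcinoma, grown as separate cultures. Poly(A) RNA of NCI-H1975 carried mix A of the sequins, a set of synthetic spike-in transcripts, and RNA of HCC827 carried mix B. The 100:0 library held only NCI-H1975 RNA, the 75:25, 50:50 and 25:75 libraries held both RNAs in those mass ratios, and the 0:100 library held only HCC827 RNA. Each mixture was reverse transcribed, amplified by 16 cycles of PCR, size selected and sequenced as full cDNA molecules on a nanopore PromethION flow cell.

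All 5 libraries came from 1 RNA preparation per cell line, with 1 library per ratio, so no ratio can be tested against another. The test asked whether log2 expression changed with the HCC827 share over the 5 libraries. A slope gives the log2 difference of pure HCC827 from pure NCI-H1975 RNA along the fitted line. Its p-value measures scatter about that trend between mixtures of the same RNAs, not between cultures. The fitted line is straight in log2, while mixing acts on the level itself. A steep slope can thus be smaller than the log2 ratio of the pure libraries, and this bend adds to the scatter. In bulk RNA, fewer cells of a type and less RNA per cell cannot be told apart.

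The libraries held between 2932250 and 4058751 reads. The mitochondrial share of reads rose in order of the ratios, from 5.64% in pure NCI-H1975 to 8.85% in pure HCC827 RNA. The mean length of the transcripts that reads were assigned to fell in the same order, from 2580 to 2174 bases. These trends run alongside every slope below, and their part in the results was not tested. The epithelial genes EPCAM, KRT8, KRT18, KRT19 and CDH1 each had at least 317 reads in every library, and NKX2-1, a transcription factor of lung epithelium, had at least 140, while NAPSA, a lung adenocarcinoma marker, went from 7 reads in pure NCI-H1975 to 690 in pure HCC827 RNA. These 7 genes were picked to check the labelled cell type after the tables had been seen.

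Actin monomers assemble into filaments that give a cell its shape and pull on its contacts. Actinins cross-link the filaments, tropomyosins lie along them and set which other proteins can bind, caldesmon binds filaments together with tropomyosin, and myosin II, of which MYL6 is a light chain, pulls on them. Nonmuscle cells make several tropomyosin proteins by combining alternative first exons, internal exons and last exons.

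Of the 10 genes, 2 rose and 6 fell toward HCC827, and TPM2 and ACTB did not pass the threshold (edgeR quasi-likelihood test, adjusted p under 0.05). Over all genes 45.7% passed, 23.5% rising and 22.3% falling, so calls are common in this series and the count is not read as particular to these genes. The median slope of the 10 genes was -0.50, beside -0.03 over all genes, and their median absolute slope was 0.80, beside 0.66. In the actinin pair ACTN4 rose and ACTN1 fell, and in the actin pair ACTG1 rose.

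**Figure D1:**
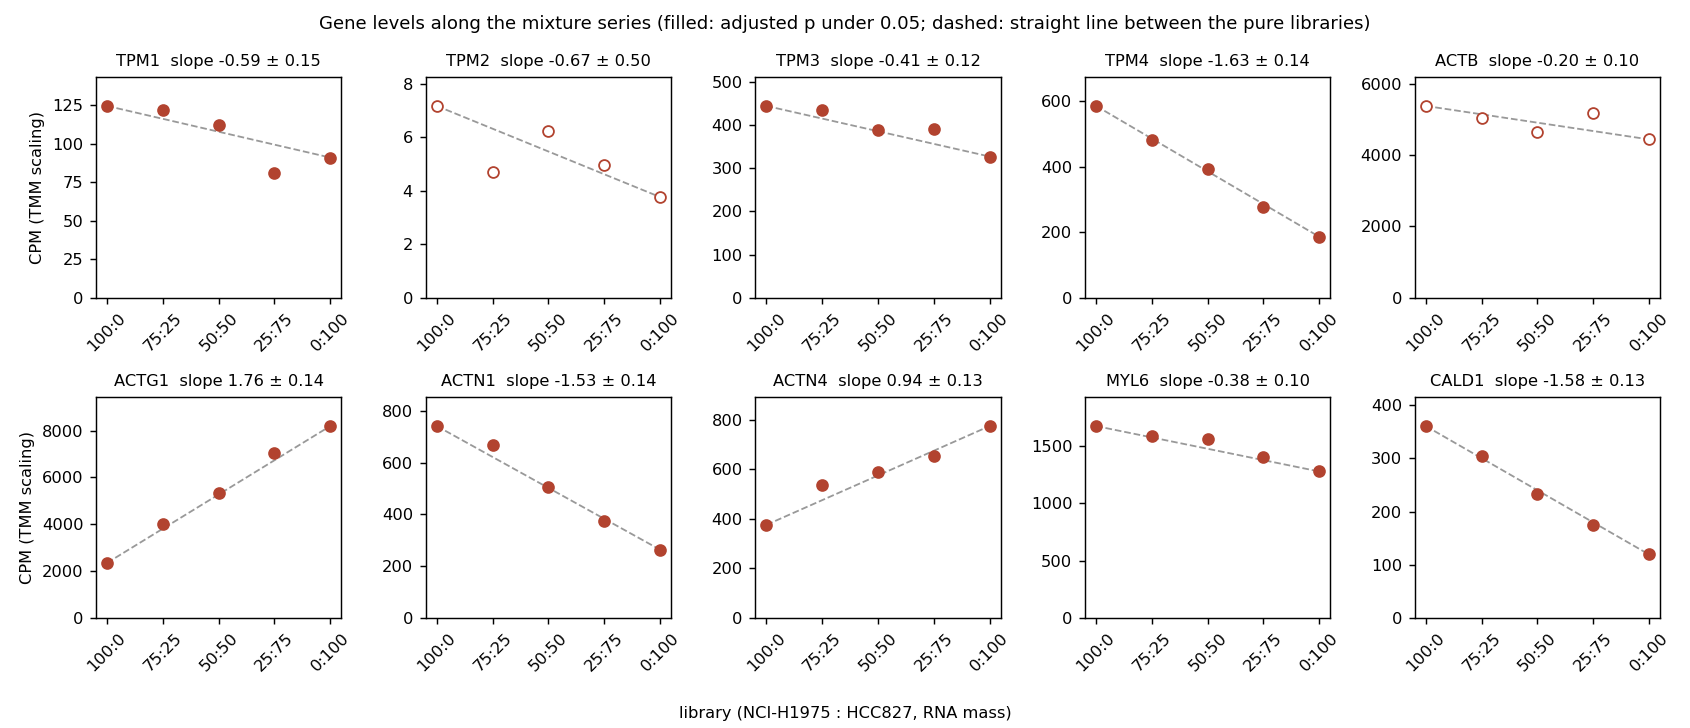
Level of each of the 10 genes in CPM (reads scaled to library size by TMM, vertical axis) in the 5 libraries ordered by RNA mass ratio (horizontal axis). Filled points mark genes with adjusted p under 0.05, and the dashed line joins the pure libraries. ACTG1 rose from 2356 to 8195 CPM and TPM4 fell from 586 to 187, with the mixtures between the pure libraries for both.

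For each gene, the level in a mixture was set beside the mass-weighted mean of the pure libraries. Over the 10 genes the measured level differed from that mean by -25.7% to 13.1% in the 75:25 library, by -5.52% to 14.2% in the 50:50 library and by -18.2% to 10.8% in the 25:75 library. The largest of these departures belonged to TPM2, with 10 to 24 reads a library, and to TPM1, with 229 to 517. Genes with more reads also departed: the 13.1% was that of ACTN4, with 2286 reads in that library. The -5.52% and the 10.8% were those of ACTB, with 17794 and 14588 reads. For the 5 called genes that differed at least 2-fold between the pure libraries (TPM4, ACTG1, ACTN1, ACTN4 and CALD1), the 50:50 library stood 48.1% to 53.9% of the way from 100:0 to 0:100. The 75:25 library stood 15.0% (ACTN1) to 40.6% (ACTN4) of the way and the 25:75 library 69.5% to 80.6%, a wider spread than at the even ratio.

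The cytoplasmic actins ACTB and ACTG1 encode the beta and gamma actins of nonmuscle cells. Their proteins are nearly the same and differ mainly at the start, and their coding sequences differ throughout at silent positions. The whole coding sequences of the main transcripts, 1125 bases each, differed at 98 positions and were 91.3% identical. The first 60 coding bases are shown because they hold the start, where the proteins are known to differ; capitals mark the 10 bases that differ, read 5′ to 3′ on the minus strand of GRCh38 at chr7:5529598-5529657 for ACTB and chr17:81512295-81512354 for ACTG1.
ACTB: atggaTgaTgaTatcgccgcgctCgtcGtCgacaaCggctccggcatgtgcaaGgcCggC
ACTG1: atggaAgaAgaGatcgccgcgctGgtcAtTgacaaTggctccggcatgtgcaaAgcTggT

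ACTG1 (ENSG00000184009.13, chr17:81509413-81523847, minus strand) had 7881, 17023, 20545, 19904 and 21720 reads from 100:0 to 0:100. Scaled to library size (CPM, reads scaled by TMM), these came to 2356, 4002, 5350, 7060 and 8195, so that each library stood above the previous one. The slope was 1.76 ± 0.14 (SE, 5 libraries; edgeR quasi-likelihood test, adjusted p = 3.21e-06), and the 0:100 level was 3.48-fold that of the 100:0 library. ACTB (ENSG00000075624.17, chr7:5526409-5563902, minus strand) had 17972, 21437, 17794, 14588 and 11759 reads, or 5373, 5039, 4634, 5174 and 4437 CPM. The 25:75 library was out of order here, above its neighbours on both sides. The slope of ACTB was -0.20 ± 0.10 (edgeR quasi-likelihood test, adjusted p = 0.106). Without the 25:75 library it was -0.27 and passed the threshold (edgeR quasi-likelihood test, adjusted p = 0.0193). With all 5 libraries it passed on library totals, at -0.62 (edgeR quasi-likelihood test, adjusted p = 1.54e-04). It also passed with at least 10 reads required in every library, at -0.26 (edgeR quasi-likelihood test, adjusted p = 0.0464). The call for ACTB thus depends on the libraries, the scaling and the filter.

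Because ACTG1 rose far more than ACTB changed, the make-up of the actin reads turned over. ACTB took 69.5% of the reads of both genes in the 100:0 library (95% Wilson interval 69.0 to 70.1, counting error only), then 55.7%, 46.4% and 42.3%, and 35.1% in the 0:100 library (34.6 to 35.6). The order of the pair in reads thus changed between the 75:25 and the 50:50 library. Shares of a family are shares of reads, each from 1 cDNA molecule, and were not divided by length. The summed level of both actins was 7729, 9041, 9984, 12234 and 12632 CPM. On library totals without TMM scaling the same sums were 8968, 9624, 10028, 11361 and 10964, so the size of the rise depends on the scaling.

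**Figure D2:**
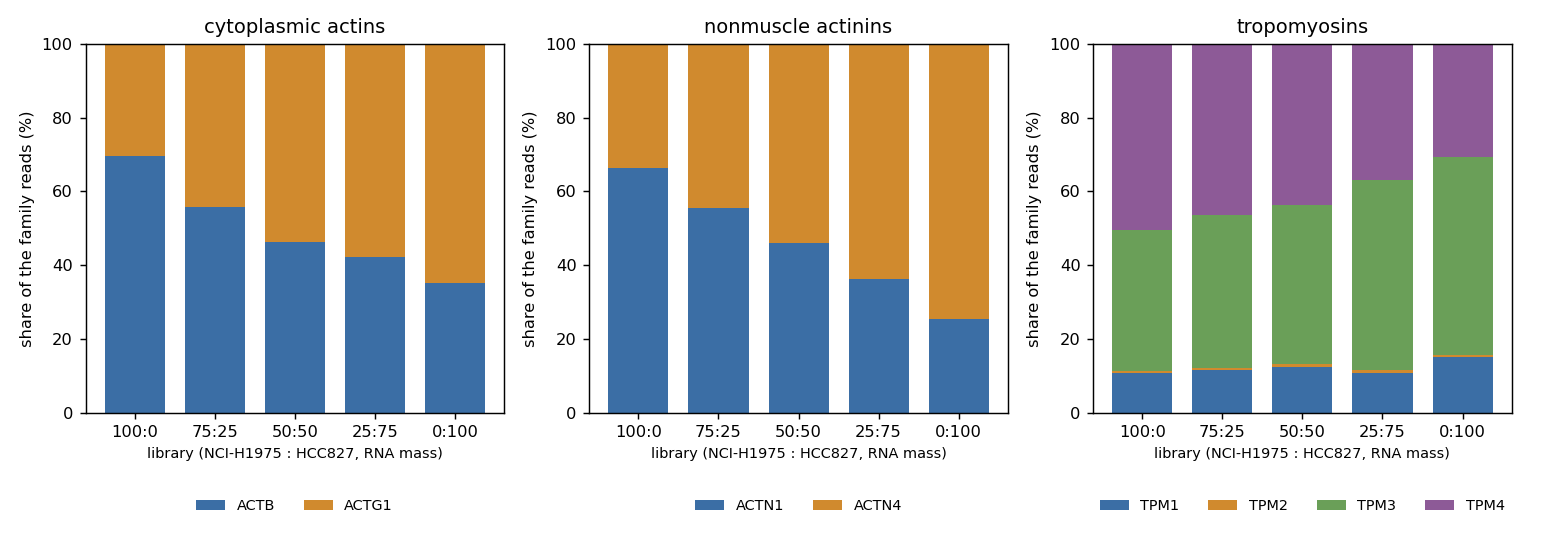
Share of reads (percent, vertical axis) taken by each member of the cytoplasmic actins, the nonmuscle actinins and the tropomyosins in the 5 libraries ordered by RNA mass ratio (horizontal axis). ACTB fell from 69.5% to 35.1% of actin reads, ACTN1 from 66.3% to 25.4% of actinin reads and TPM4 from 50.5% to 30.7% of tropomyosin reads.

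Within each actin gene the make-up of transcripts hardly moved. ACTG1-205, the main transcript with 375 codons, took 79.2%, 79.0%, 78.7%, 79.9% and 78.4% of ACTG1 reads, and ACTG1-215, which codes for a protein of the same length, took 16.5%, 16.7%, 17.4%, 16.6% and 17.1%. Of the 12 ACTG1 transcripts tested, 10 rose and none fell, where 17.5% of all transcripts tested rose and 16.1% fell (33.6% in either direction). ACTB-217 took 56.9%, 56.0%, 56.0%, 57.8% and 57.0% of ACTB reads. ACTB-207, a model of 715 bases from the 3′ part of the gene, took 38.4%, 39.6%, 39.8%, 38.4% and 38.7%. Of 7 ACTB transcripts tested, 1 fell, ACTB-206, which took at most 1.93% of the gene (slope -0.55). Of the annotated transcripts, 5 of ACTB and 9 of ACTG1 were not in the tables.

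Processed pseudogenes are a known hazard for actin reads. The 21 pseudogenes named after ACTG1 had 5 to 11 reads in a library, and the 12 named after ACTB had none. Adding such reads to the parent gene changed no call or direction among the 10 genes.

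The actinins showed the same kind of exchange. ACTN1 and ACTN4 encode the actinins of nonmuscle cells, which bind filaments as antiparallel dimers. ACTN1 (ENSG00000072110.16, chr14:68874128-68979440, minus strand) had 2478, 2847, 1936, 1051 and 700 reads, or 741, 669, 504, 373 and 264 CPM, falling at every step. Its slope was -1.53 ± 0.14 (edgeR quasi-likelihood test, adjusted p = 5.51e-06), and its level was 2.80-fold lower in the 0:100 than in the 100:0 library. ACTN4 (ENSG00000130402.14, chr19:38647649-38731589, plus strand) had 1257, 2286, 2267, 1839 and 2051 reads, or 376, 537, 590, 652 and 774 CPM, rising at every step. The slope of ACTN4 was 0.94 ± 0.13 (edgeR quasi-likelihood test, adjusted p = 1.16e-04), a 2.06-fold higher level in the 0:100 library. On library totals it was 0.52 and still passed (edgeR quasi-likelihood test, adjusted p = 0.00435).

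ACTN1 took 66.3% of the actinin reads in the 100:0 library (Wilson interval 64.8 to 67.8), then 55.5%, 46.1% and 36.4%, and 25.4% in the 0:100 library (23.9 to 27.1). The sum of both genes was 1117, 1207, 1095, 1025 and 1038 CPM with TMM, and 1296, 1285, 1099, 952 and 901 on library totals, where it fell in order. Mixing the pure libraries by mass would give ACTN1 56.7%, 46.6% and 36.2% at the 75:25, 50:50 and 25:75 ratios, close to the measured shares. The other families lay further off. Mixing would give ACTB 57.4%, 48.2% and 40.9% of actin reads, beside 55.7%, 46.4% and 42.3% measured. Among tropomyosins at 25:75 it would give TPM3 47.7%, beside 51.8% measured, and TPM1 13.3%, beside 10.8%. CAPN12, on the opposite strand, overlaps ACTN4 and had 2686 reads over the 5 libraries beside 9700 for ACTN4. CAPN12 had a slope of 0.85 (edgeR quasi-likelihood test, adjusted p = 0.00125), and whether the counting used strand is not given in the sources used here, so its part in the ACTN4 result was not tested.

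Actinin pre-mRNAs carry a pair of alternative exons for the calcium-binding region near the end of the protein. In ACTN1 the 81-base exon is known as the nonmuscle form and the 66-base exon as the smooth muscle form. Both pairs are shown because the genes used them differently; capitals mark the 18 bases that differ between the genes in each pair. The ACTN1 exons lie on the minus strand of GRCh38 at chr14:68878989-68879069 and chr14:68878458-68878523, and the ACTN4 exons on the plus strand at chr19:38727946-38728026 and chr19:38728316-38728381.
ACTN1 exon 81: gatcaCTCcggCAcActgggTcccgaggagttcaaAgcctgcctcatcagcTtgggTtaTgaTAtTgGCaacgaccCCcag
ACTN4 exon 81: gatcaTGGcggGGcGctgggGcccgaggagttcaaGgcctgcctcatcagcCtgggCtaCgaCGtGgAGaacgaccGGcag
ACTN1 exon 66: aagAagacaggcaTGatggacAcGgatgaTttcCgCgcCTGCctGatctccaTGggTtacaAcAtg
ACTN4 exon 66: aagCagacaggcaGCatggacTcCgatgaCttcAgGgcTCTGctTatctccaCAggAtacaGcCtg

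Exon use is given as the share of reads on transcripts that span an exon which include it. The 81-base exon of ACTN1 was included in 99.4%, 99.5%, 99.7%, 99.8% and 98.6% of such reads, and the 66-base exon in 11.5%, 11.5%, 11.2%, 9.14% and 11.6%. The transcript with both, ACTN1-203 of 914 codons, took 8.18% to 9.92% of ACTN1 reads, while ACTN1-201 of 892 codons, with the 81-base exon alone, took 55.3%, 57.9%, 58.7%, 58.2% and 57.9%. In ACTN4 the 81-base exon was included in 46.6%, 45.3%, 46.1%, 46.9% and 45.4% of reads and the 66-base exon in 46.4%, 46.8%, 46.6%, 48.1% and 49.2%. The near-even split in ACTN4 stood in every library, and the Wilson intervals of the pure libraries overlapped for all 4 exons.

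ACTN4 also has a pair of 86-base exons further upstream. They are shown because they and the exons above together separate ACTN4-201 from ACTN4-204; capitals mark the 21 bases that differ within the pair, on the plus strand of GRCh38 at chr19:38710257-38710342 and chr19:38711276-38711361.
ACTN4 exon 86 upstream: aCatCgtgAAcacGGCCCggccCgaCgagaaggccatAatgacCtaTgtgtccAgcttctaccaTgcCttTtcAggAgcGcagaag
ACTN4 exon 86 downstream: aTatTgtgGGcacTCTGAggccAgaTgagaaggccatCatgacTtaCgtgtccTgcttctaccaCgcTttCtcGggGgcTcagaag

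The upstream exon was used in 46.7%, 45.2%, 46.1%, 47.1% and 45.5% of ACTN4 reads and the downstream exon in 46.3%, 46.9%, 46.5%, 47.9% and 49.2%. ACTN4-201, of 911 codons with the upstream 86-base and the 81-base exon, took 46.4%, 45.1%, 45.7%, 46.6% and 45.2% of reads. ACTN4-204, of 906 codons with the downstream 86-base and the 66-base exon, took 46.3%, 46.8%, 46.4%, 47.8% and 49.1%. The remaining tested transcript, ACTN4-210 of 441 bases, took 6.84%, 7.87%, 7.28%, 5.06% and 5.27%. Both ACTN4-201 and ACTN4-204 rose, with slopes of 0.87 and 0.96, and ACTN4-210 had 0.27 and did not pass. The first pair agree over most of their length, and how reads that match several transcripts were divided is not given in the sources used here.

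Transcripts marked as retaining an intron took a sizeable share of ACTN1. ACTN1-216 took 23.4%, 21.1%, 21.7%, 25.0% and 22.9% of its reads, and ACTN1-211 took 7.99% to 10.7%. All 4 ACTN1 transcripts tested fell, with slopes between -1.94 for ACTN1-211 and -1.49 for ACTN1-216, where 16.1% of all transcripts tested fell. Of the 47 transcripts annotated for ACTN1, 26 were not in the tables, so shares are of those that were.

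All 4 tropomyosin genes had negative slopes, and 3 passed the test. TPM4 (ENSG00000167460.17, chr19:16067021-16103002, plus strand) had 1961, 2056, 1514, 782 and 495 reads, or 586, 483, 394, 277 and 187 CPM. It fell at every step, with a slope of -1.63 ± 0.14 (edgeR quasi-likelihood test, adjusted p = 4.30e-06), and was 3.14-fold lower in the 0:100 than in the 100:0 library. TPM3 (ENSG00000143549.22, chr1:154155308-154194648, minus strand) had 1484, 1850, 1489, 1100 and 866 reads, or 444, 435, 388, 390 and 327 CPM. Its slope was -0.41 ± 0.12 (edgeR quasi-likelihood test, adjusted p = 0.0130), and without the 0:100 library it was -0.29 and missed the threshold (edgeR quasi-likelihood test, adjusted p = 0.138).

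TPM1 (ENSG00000140416.25, chr15:63042620-63071915, plus strand) had 416, 517, 429, 229 and 241 reads, or 124, 122, 112, 81.2 and 90.9 CPM. The 3 libraries with the most NCI-H1975 RNA stood above the other two, and the slope was -0.59 ± 0.15 (edgeR quasi-likelihood test, adjusted p = 0.00728). TPM2 (ENSG00000198467.16, chr9:35681992-35690056, minus strand) had only 24, 20, 24, 14 and 10 reads, or 7.17, 4.70, 6.25, 4.97 and 3.77 CPM. The slope of TPM2, -0.67 ± 0.50, was not detectable from 0 at this depth (edgeR quasi-likelihood test, adjusted p = 0.292).

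The summed level of the 4 tropomyosins was 1161, 1044, 900, 754 and 608 CPM. TPM4 took 50.5% of their reads in the 100:0 library (Wilson interval 48.9 to 52.0), then 46.3%, 43.8% and 36.8%, and 30.7% in the 0:100 library (28.5 to 33.0). TPM3 went the other way, with 38.2% (36.7 to 39.7), 41.6%, 43.1%, 51.8% and 53.7% (51.3 to 56.1), although its own level did not rise. TPM1 took 10.7%, 11.6%, 12.4%, 10.8% and 15.0%, and TPM2 at most 0.694%. Pseudogenes named after TPM3 had 32, 27, 26, 9 and 1 reads in the same order, few beside those of TPM3 itself.

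Long tropomyosins of 284 codons start at an outer promoter and short ones of 248 codons at an inner promoter, and the genes differed in which start their reads carried. For TPM1, the outer coding start took 88.9%, 92.1%, 88.2%, 88.9% and 79.6% of reads with an annotated start. For TPM3, the inner start took 95.7%, 97.2%, 96.8%, 97.9% and 96.7%. TPM4 used both: the outer start took 34.3%, 39.3%, 36.0%, 38.6% and 36.3%, and the inner start at chr19:16076566 took 57.4%, 54.6%, 56.9%, 56.8% and 57.5%. The outer start led in TPM1 and the inner start in TPM3 and TPM4 in all 5 libraries, and the outer share of TPM1 was lowest in the 0:100 library. The inner start of TPM4 also counts nonsense-mediated decay models, so its lead is not a lead of short proteins. The long form TPM4-221 had 362, 453, 312, 178 and 106 reads, beside 343, 408, 316, 163 and 102 for the short form TPM4-218.

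The inner start of TPM1 took 11.1%, 7.94%, 11.8% and 11.1% of reads in the first 4 libraries and 20.4% in the 0:100 library, from 40 of 196 reads (Wilson interval 15.4 to 26.6, above that of the 100:0 library, 8.23 to 14.9). How many of all coding starts differ this way was not counted. The transcript TPM1-216, a short form of 248 codons, had 8, 9, 10, 10 and 12 reads while its gene fell, and took 1.92%, 1.74%, 2.33%, 4.37% and 4.98% of TPM1. Its use relative to the gene had an unadjusted p of 0.00552 and an adjusted p of 0.609 (edgeR splicing test). For the coding starts of TPM1 together the unadjusted p was 0.0321 and the adjusted p 1.00 (edgeR with Simes combination), so the change did not pass.

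TPM1 and TPM3 each carry a pair of 76-base internal exons that are known to be used in place of each other. They are shown because exon choice here is a classic case of alternative splicing; capitals mark the 33 bases that differ within the TPM1 pair and the 36 within the TPM3 pair. The TPM1 exons lie on the plus strand of GRCh38 at chr15:63061198-63061273 and chr15:63061713-63061788, and the TPM3 exons on the minus strand at chr1:154172029-154172104 and chr1:154171413-154171488.
TPM1 exon 76 upstream: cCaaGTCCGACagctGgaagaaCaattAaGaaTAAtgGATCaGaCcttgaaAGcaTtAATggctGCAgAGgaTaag
TPM1 exon 76 downstream: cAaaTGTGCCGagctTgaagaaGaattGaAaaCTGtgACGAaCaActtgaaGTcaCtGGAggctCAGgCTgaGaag
TPM3 exon 76 upstream: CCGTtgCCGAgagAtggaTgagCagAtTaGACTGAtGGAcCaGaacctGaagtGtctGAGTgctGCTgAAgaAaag
TPM3 exon 76 downstream: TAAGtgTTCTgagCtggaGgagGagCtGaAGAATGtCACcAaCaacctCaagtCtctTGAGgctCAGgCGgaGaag

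The genes leaned opposite ways. In TPM1 the downstream exon was included in 86.7%, 88.3%, 86.3%, 90.4% and 87.7% of reads that span it, and the upstream exon in 23.4%, 20.4%, 21.0%, 18.1% and 23.5%. In TPM3 the upstream exon was included in 70.3%, 67.0%, 64.9%, 70.9% and 69.1%, and the downstream exon in 23.8%, 26.7%, 28.2%, 22.5% and 24.5%. Each exon has its own set of spanning transcripts, so the shares of a pair need not add up to the whole. In neither gene did the pure libraries differ beyond their Wilson intervals.

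Single tropomyosin transcripts are read beside the 16.1% of all transcripts that fell. In TPM4, 27 of the 30 tested transcripts fell and none rose; TPM4-221, the long form of 284 codons, took 18.5% of reads in the 100:0 library and 20.6% to 22.8% in the others, and TPM4-218, the short form of 248 codons, took 17.5%, 19.8%, 20.9%, 20.8% and 20.6%. TPM4-232, marked as retaining an intron, took 16.5%, 16.8%, 18.4%, 19.6% and 20.4%. In TPM3, 3 of 16 transcripts fell, TPM3-208, TPM3-215 and TPM3-212. The most read of them was TPM3-212 of 248 codons, with 19.5%, 19.0%, 17.5%, 17.4% and 20.1%. The retained-intron transcript TPM3-213 took 18.1%, 15.9%, 17.2%, 19.5% and 18.0% of TPM3. In TPM1, 2 of 10 transcripts fell, TPM1-205 of 326 codons with 28.4%, 32.9%, 30.3%, 33.6% and 24.5%, and TPM1-201 of 284 codons with 28.4%, 25.1%, 28.0%, 27.1% and 25.3%.

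**Figure D3:**
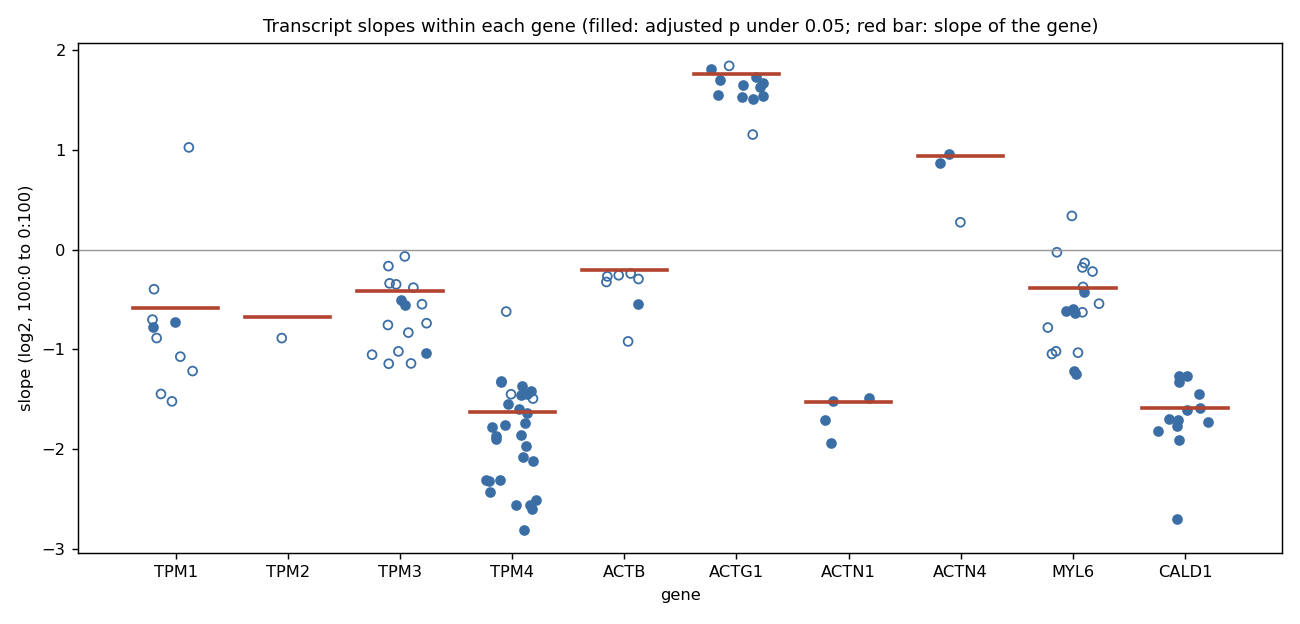
Slopes of the 114 tested transcripts (fitted log2 change from 100:0 to 0:100, vertical axis) by gene (horizontal axis), with the slope of the gene as a red bar and filled points for adjusted p under 0.05. All 13 CALD1 transcripts and 27 of 30 TPM4 transcripts fell, and 10 of 12 ACTG1 transcripts rose. Over all transcripts tested, 16.1% fell and 17.5% rose.

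CALD1 (ENSG00000122786.20, chr7:134744252-134970729, plus strand) had 1207, 1297, 898, 491 and 317 reads, or 361, 305, 234, 174 and 120 CPM. It fell at every step with a slope of -1.58 ± 0.13 (edgeR quasi-likelihood test, adjusted p = 4.05e-06), a 3.02-fold lower level in the 0:100 library. All 13 of its tested transcripts fell, where 16.1% of all transcripts tested did. CALD1-201, whose 793 codons match the heavy caldesmon known from smooth muscle, had 184, 210, 153, 76 and 36 reads, or 15.2%, 16.2%, 17.0%, 15.5% and 11.4% of the gene. The light form CALD1-202, of 538 codons, took 13.8%, 14.8%, 15.0%, 13.6% and 16.7%. CALD1-203, of 558 codons, took 16.1%, 12.6%, 15.7%, 13.6% and 14.2%. The nonsense-mediated decay model CALD1-210 took 13.8%, 15.7%, 14.1%, 17.1% and 18.3%.

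The Wilson intervals of CALD1-201 in the pure libraries overlapped, 13.3 to 17.4% and 8.32 to 15.3%, and these counts rest on how reads were divided among CALD1 transcripts. A 78-base CALD1 exon at chr7:134935688-134935765 was included in 44.3%, 39.6%, 42.0%, 41.4% and 37.5% of spanning reads. The outer coding start of CALD1 took 53.7%, 56.0%, 56.5%, 52.1% and 52.0% of reads with a start and the inner one the rest. None of these passed the usage test.

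MYL6 (ENSG00000092841.19, chr12:56158346-56163496, plus strand), the essential light chain of nonmuscle and smooth muscle myosin II, had 5598, 6744, 5977, 3957 and 3386 reads. These came to 1673, 1585, 1557, 1404 and 1278 CPM, falling at every step but by little, with a slope of -0.38 ± 0.10 (edgeR quasi-likelihood test, adjusted p = 0.00757). Without the 0:100 library the slope was -0.32 and missed the threshold (edgeR quasi-likelihood test, adjusted p = 0.0595). MYL6B lies on the same strand and overlaps MYL6; it had 1399 reads beside 25662 and a slope of 1.22, and SMARCC2 on the opposite strand had 1438 reads and a slope of 0.49. Both moved against MYL6, and their part in its slope was not tested.

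A 45-base exon near the end of MYL6 holds a stop codon, so that including it ends the protein inside the exon and skipping it moves the end to a later exon. It is shown because the Wilson intervals of its use in the pure libraries did not overlap, although its usage test did not pass. Capitals mark the stop codon, after 26 bases, on the plus strand of GRCh38 at chr12:56160626-56160670.
MYL6 exon 45: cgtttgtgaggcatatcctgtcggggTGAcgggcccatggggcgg

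The exon was included in 55.0% of spanning reads in the 100:0 library (2957 of 5378; Wilson interval 53.7 to 56.3), 56.4% in 75:25 and 56.1% in 50:50, then 49.1% in 25:75 and 49.8% in 0:100 (1628 of 3268; 48.1 to 51.5). The first 3 libraries lie together above the last pair, and the counting intervals of the pure libraries do not overlap. How many of all tested exons differ this way was not counted. The usage test, which also counts the scatter between libraries, gave an unadjusted p of 0.260 and an adjusted p of 1.00 (edgeR with Simes combination). By the F test the adjusted p for the exon was 0.844. The same shift showed in the coding end, with 54.4%, 55.8%, 55.7%, 48.6% and 49.5% of reads ending in this exon, since both measures count the same reads; for the coding ends together the F test gave an unadjusted p of 0.0179 and an adjusted p of 0.306 (edgeR). The shift does not follow the mixing ratio in even steps, as it lies between the 50:50 and the 25:75 library.

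By transcript, MYL6-202 includes the exon and took 34.4%, 35.5%, 36.1%, 30.2% and 31.3% of MYL6 reads. Its Wilson intervals in the pure libraries did not overlap, at 33.1 to 35.6% and 29.8 to 32.9%. Such intervals are narrow where a gene has many reads, and how many of all tested transcripts differ this way was not counted. The use of MYL6-202 relative to its gene had an unadjusted p of 0.302 (edgeR splicing test). The slope of MYL6-202 was -0.64 (edgeR quasi-likelihood test, adjusted p = 0.00161). MYL6-211 took 19.1%, 18.3%, 18.8%, 21.5% and 21.4%, and MYL6-201 took 7.45%, 7.43%, 7.61%, 10.1% and 9.07% with a slope of -0.03, the sign of which changes when a pure library is left out. Of 18 MYL6 transcripts tested, 6 fell and none rose, where 16.1% of all transcripts tested fell and 17.5% rose (33.6% in either direction).

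**Figure D4:**
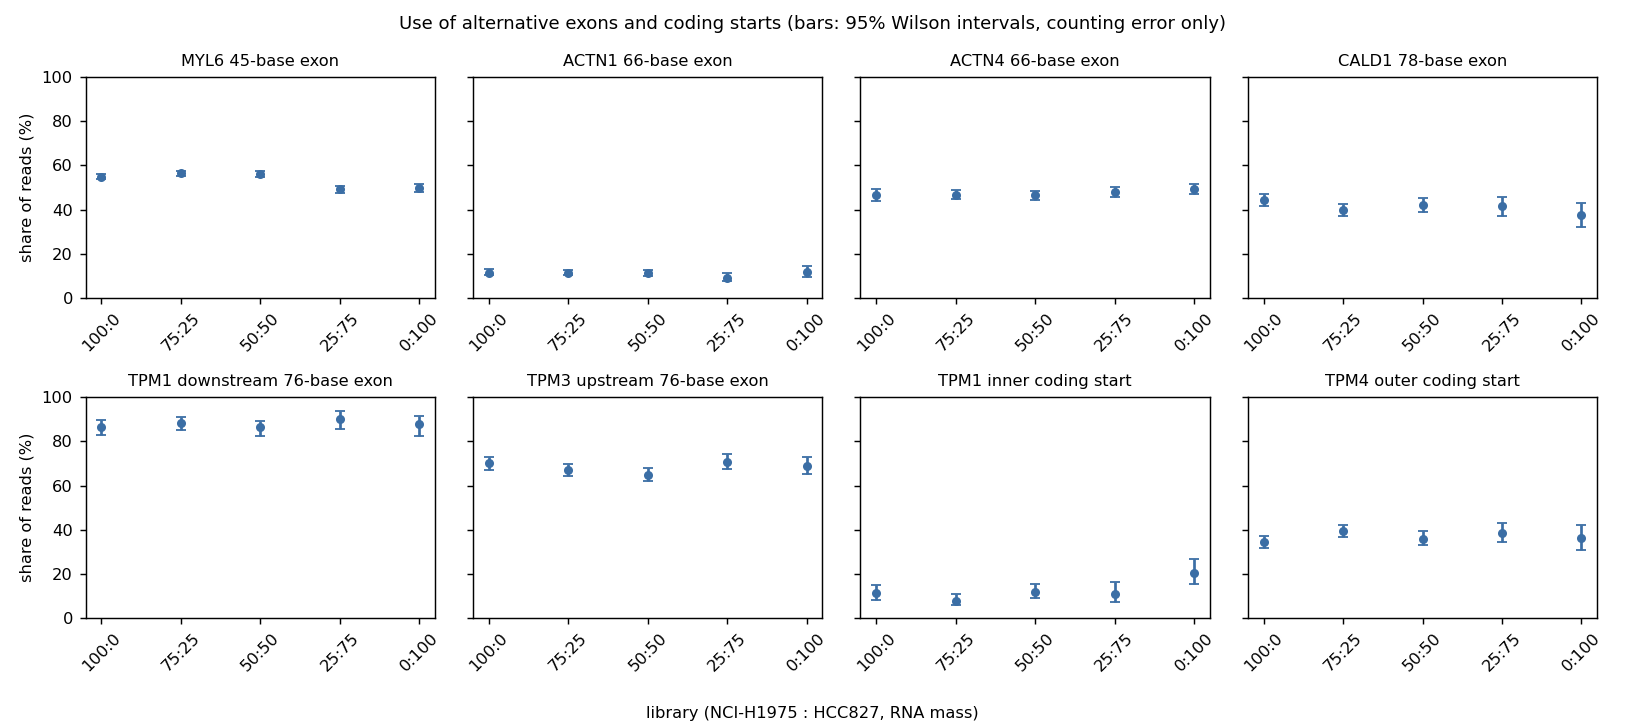
Share of reads (percent, vertical axis) that include an alternative exon or carry a coding start, in the 5 libraries ordered by RNA mass ratio (horizontal axis), with 95% Wilson intervals for counting error as bars. Inclusion of the MYL6 45-base exon was 55.0% to 56.4% in the first 3 libraries and 49.1% and 49.8% in the last pair, and the TPM1 inner start reached 20.4% in the 0:100 library.

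Of the 114 transcripts, 68 passed the slope test, 12 rising and 56 falling, where 33.6% of all transcripts passed, 17.5% rising and 16.1% falling. Transcripts of a gene share its change in level, so these counts are not separate observations. Of the 77 transcripts that are called or take at least 10% of a gene, 24 lost their call without the 0:100 library, 19 without the 100:0 library and 23 by the DESeq2 Wald test. Of 9 genes with several transcripts, none passed the isoform usage test (edgeR with Simes combination, 0.402% of all 7455 genes passed), 1 had an unadjusted p under 0.05 (3.86% of all genes did) and the lowest adjusted p was 1.00. With a gene-level F test in its place none passed, 2 had an unadjusted p under 0.05 (MYL6 and ACTN4) and the lowest adjusted p was 0.533, for MYL6. The gene with the unadjusted Simes p was ACTN4.

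The same held by kind of change. None of 6 genes passed for coding starts, where 0.178% of 2241 genes did and 1 of the 6, TPM1, had an unadjusted p under 0.05 (1.92% of all; edgeR with Simes combination). None of 7 passed for coding ends, where 0.802% of 2994 genes did and 1 of the 7, ACTN4, had an unadjusted p under 0.05 (5.08% of all). By the F test the coding ends of ACTN4 and MYL6 had adjusted p-values of 0.305 and 0.306. None of 46 internal exons in 8 genes passed, where 0.0416% of 9619 exons did and 6 exons, all of ACTN4 and all set against ACTN4-210, had an unadjusted p under 0.05 (2.09% of all exons did). Those 6 exons share their reads and are not separate observations. With so few calls over all genes, a count of 0 among these genes is near the background, and it does not show that usage was equal.

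The proteins that work with these filaments were read from lists of named genes, described by counts. Over all genes 23.5% rose and 22.3% fell with TMM scaling, and the median slope was -0.03. Of 11 genes of nonmuscle myosin II and its regulators, 1 rose and 7 fell, with a median slope of -0.36. MYH14, a nonmuscle myosin heavy chain, rose from 39 to 159 reads (slope 2.16 ± 0.23). MYL9, a regulatory light chain, fell from 130 to 23.4 CPM (-2.11 ± 0.22), ROCK2, a kinase that raises myosin activity, from 83.7 to 21.1 (-1.92 ± 0.18), and MYLK, the myosin light chain kinase, from 49.6 to 14.0 (-1.84 ± 0.21). These genes were named for having the largest absolute slopes of the list. The slope of MYL6, -0.38, lay near the list median. On library totals 1 gene of this list rose and 9 fell, with a median of -0.77, beside -0.45 over all genes.

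Of 13 genes of the Arp2/3 complex and filament nucleation, 2 rose and 2 fell, with a median of -0.06. The called ones changed by little: WASF2, an activator of the complex, had a slope of 0.55 and the formin DIAPH1 of 0.53, while the subunits ACTR2 and ARPC5 had -0.52 and -0.46. On library totals no gene of this list rose and 8 fell, with WASF2 and DIAPH1 no longer called, at 0.14 and 0.12. The list median was then -0.47, close to the -0.45 over all genes, so the 8 falls are not read as particular to this list. Of 16 genes that bind monomers or cap and sever filaments, 8 rose and 5 fell, with a median of 0.37. On library totals 2 rose and 7 fell, with a median of -0.04. WDR1, a cofactor of cofilin, had a slope of 0.97, TWF1 of -0.91, CAPZA2, a subunit of capping protein, of -0.87, and TWF2, the paralog of TWF1, of 0.73. TWF1 and TWF2 thus had slopes of opposite sign, and TWF2 missed the threshold on library totals, at 0.32.

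Among 19 filament cross-linkers and membrane linkers, 9 rose and 6 fell, with a median of 0.06. On library totals 5 rose and 10 fell, with a median of -0.35, beside -0.45 over all genes. The steepest rise was that of LCP1, a plastin, from 27 to 504 reads (slope 3.28 ± 0.43), followed by VIL1, the villin of microvilli, from 4 to 35 reads (2.35 ± 0.53). FSCN1, the fascin that bundles filaments in filopodia, fell from 1166 to 175 reads (-2.03 ± 0.23), and the calponin CNN3 from 379 to 127 (-1.36 ± 0.17). Of 9 focal adhesion genes none rose and 3 fell: TES (-0.96), FERMT2 (-0.80) and LIMS1 (-0.71), with a median of -0.17. On library totals none of them rose and 5 fell, with a median of -0.59, beside -0.45 over all genes.

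**Figure D5:**
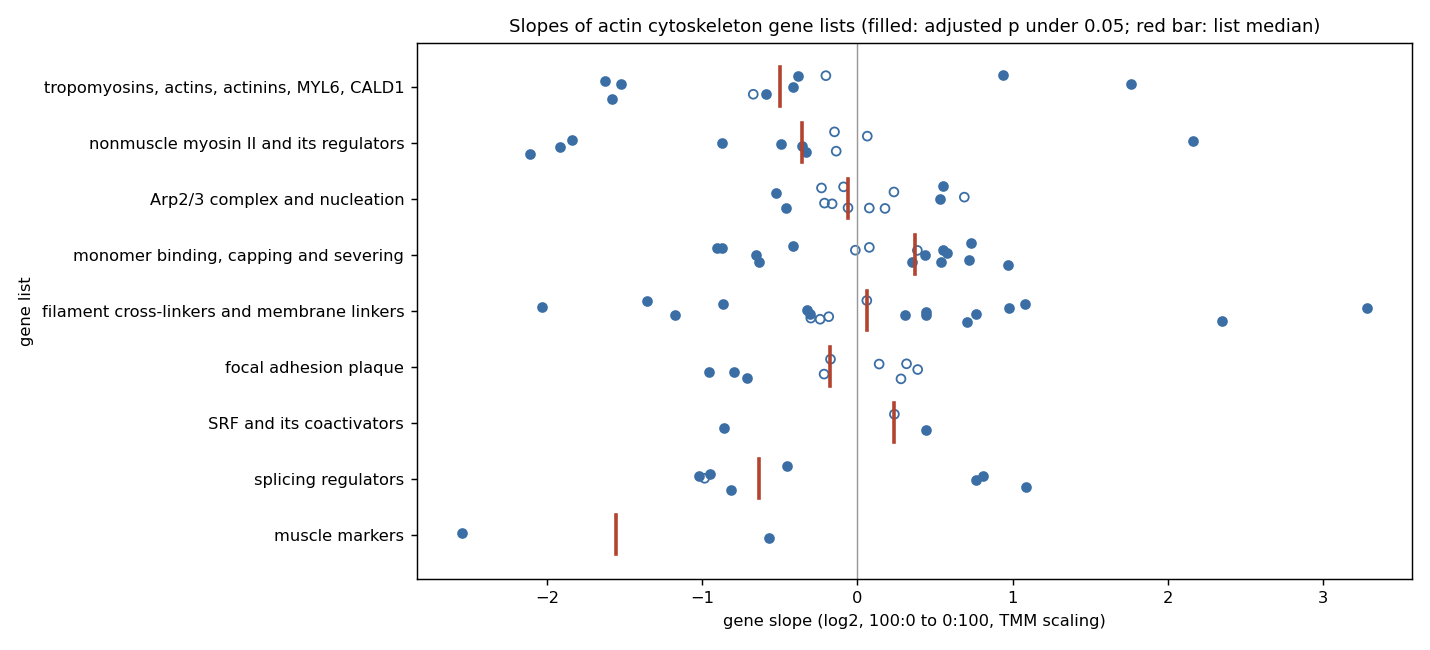
Slopes (fitted log2 change from 100:0 to 0:100 with TMM scaling, horizontal axis) of the 10 genes and of each list of related genes (vertical axis), with filled points for adjusted p under 0.05 and the median of each list as a red bar. Every point is a gene. LCP1 at 3.28 has the steepest slope upward and ACTA2 at -2.55 the steepest downward.

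SRF is the transcription factor known to drive many actin and tropomyosin genes, through a sequence called the CArG box and with the coactivators MRTFA and MRTFB, which respond to free actin. SRF itself had 38.9 CPM in the 100:0 and 54.0 in the 0:100 library (slope 0.44, edgeR quasi-likelihood test, adjusted p = 0.0451), and 0.03 with no call on library totals. MRTFB fell from 30.2 to 18.1 CPM (slope -0.86), and MRTFA, with a slope of 0.24, did not pass. Promoters of 9 of the 10 genes, all but ACTB, matched the RefSeq table (GRCh38.p14, from 250 bases before to 50 after each start). Only the first listed promoter of each gene was read, so any other promoter of a gene was not searched. Of these 9, 2 held a CArG box on either strand, beside 454 of 35116 promoters (1.293%). Both are shown, those of TPM4 and ACTG1, which had the largest fall and the largest rise of the 10 genes. Capitals mark the box, which begins 173 bases before the RefSeq start of TPM4 (plus strand, chr19:16067340-16067399) and 94 before that of ACTG1 (minus strand, chr17:81512859-81512918).
TPM4 promoter 1: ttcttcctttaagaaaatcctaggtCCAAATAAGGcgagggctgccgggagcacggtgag
ACTG1 promoter 1: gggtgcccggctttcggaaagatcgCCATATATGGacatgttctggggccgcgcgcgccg

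A match is a stretch of letters, not a measured site, and the genes that hold it here moved in opposite directions. Of 8 splicing regulators known to act on tropomyosin or actinin exons, 3 rose and 4 fell, where 23.5% of all genes rose and 22.3% fell. ESRP1, an epithelial splicing factor, rose from 68.5 to 145 CPM (slope 1.09 ± 0.14), while QKI (-1.02), MBNL1 (-0.95) and RBFOX2 (-0.81) fell. Any link between these levels and exon use was not tested.

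Muscle genes were checked because some of the isoforms above are known from muscle. Of 12 markers, 4 (ACTC1, ACTN2, CNN1 and MYL1) had no read in any library and 7 had none in either pure library. TNNT1, a troponin of slow muscle, made up nearly all of their summed level and fell from 485 to 340 CPM (slope -0.57). ACTA2, the smooth muscle actin, had 15, 10, 6, 5 and 1 reads. The summed level of the list was 490, 435, 363, 331 and 342 CPM, and its part in the slopes above was not tested.

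The genes whose pattern was most like that of ACTG1, the largest rise, and of TPM4, the largest fall, were sought among 3680 genes with at least 100 reads in every library. The measure was the root mean square difference of centred log2 CPM over the 5 libraries. Nearest to ACTG1 was CHCHD2, from 667 to 2306 CPM, with a difference of 0.0181, followed by FDFT1 with 0.0298 and TKT with 0.0306. Nearest to TPM4 was HSP90AA1, from 2895 to 929 CPM, with a difference of 0.0364, followed by ESF1 with 0.0435 and SEPTIN7 with 0.0530. Any gene with a like ratio between the lines follows the same mixing line, so this likeness is a description of that ratio.

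The scaling sets where no change lies. With TMM the median slope of all genes was -0.03 and on library totals -0.45, and the share of called genes that rose went from 51.3% to 26.0%. All 10 genes, TPM1 included, kept the sign of their slope: on library totals ACTG1 was at 1.35, ACTN4 at 0.52, TPM2 at -1.08, TPM3 at -0.83, TPM4 at -2.04, ACTN1 at -1.94, MYL6 at -0.80 and CALD1 at -2.00. ACTB was at -0.62 and passed there (edgeR quasi-likelihood test, adjusted p = 1.54e-04). Shares within a family or a gene do not depend on the scaling.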

How the data were processed

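The authors deposited 1 table per library with an estimated count of reads per transcript; minimap2 2.24, Salmon 1.9.0 and GRCh38 are named in the submitters' processing notes, while their order, settings and annotation release are not given in the sources used here. Of the values, 2 were not whole and were rounded, and 161 identifiers listed a second time were summed. Identifiers were paired with GENCODE v44 (98.6% of human reads). Levels are CPM with TMM scaling. Slopes on the HCC827 mass fraction were tested with edgeR 4.0.16 (R 4.3.3; quasi-likelihood, at least 10 reads in at least 2 libraries, Benjamini-Hochberg over all features, threshold 0.05), and usage of transcripts, coding starts, coding ends and internal exons with its splicing test. The SE is the absolute slope over the square root of F. Intervals are 95% Wilson and cover counting error only. They take each read as a separate molecule, but PCR copies carry no molecular identifiers, so the intervals can be too narrow. Scripts were tested on simulated data. Alternatives used DESeq2 1.42.0, limma 3.58.1, other filters and scalings, and each library left out. Named were all 10 genes, transcripts with at least 10% of a gene or a called slope or usage (those most read are printed), textbook exons, up to 4 called genes per list by absolute slope, and 3 genes of like pattern; other names were added after their values were seen, to compare with these. The members and lists were chosen with earlier results of these data known.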

Additional observations from a re-analysis of the deposited data

How the results depend on the processing

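No paired analysis was possible because each ratio has 1 library, and the replicate number is the same for all. All 10 genes kept the direction of their slope under every alternative run. The calls that changed were ACTB, which also passed with at least 10 reads required in every library (-0.26, edgeR adjusted p = 0.0464), and those of ACTB, TPM3 and MYL6 given with the results. Of all gene slopes the test called 6172, and 4068 to 5859 with a library left out, fewest without 0:100. It called 6922 on library totals and 4791 by the DESeq2 Wald test. Of all transcript slopes it called 10660, with 6287 to 10171 when a library was left out (6626 without 100:0, 6287 without 0:100) and 6072 by the DESeq2 Wald test. The slope of MYL6-201 ran from -0.15 to 0.18 with a library left out, and reversed to 0.02 without 100:0 and to 0.18 without 0:100. Isoform usage called 30 genes, 17 with protein_coding transcripts only, 65 by the F test and 4 to 20 with a library left out, under the main count by over 1.5 times without any but 50:50. Coding starts called 4 and 1 to 4 (over 1.5 times fewer without 100:0 or 0:100), coding ends 24 and 6 to 17 (over 1.5 times fewer without any library but 25:75). Internal exons called 4, 2 with protein_coding transcripts only and 0 to 1 with any library left out. Under all of these none of the 10 genes passed a usage test; the lowest adjusted p was 0.305, for the coding ends of ACTN4 by the F test. The cause of these changes was not tested. Depth limits TPM2, with 10 to 24 reads a library.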
